A study of Homo sapiens with 6 samples.

Results

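The genes described are colony-stimulating factors and other secreted or lipid inflammatory signals: CSF1, CSF2, CSF3, IL32, EBI3 and the prostaglandin enzymes PTGS2 and PTGES. They were chosen by name, with earlier results of these data known, and found through the array's annotation. The brightest probe set that names 1 gene stands for each gene. CSF2 was not analysed here, so 6 of the 7 were measured, among 18417 genes in all, and each had 1 probe set. RNA came from A549, a human lung adenocarcinoma cell line. The stable cells labelled P1, said to carry a knockdown of H2AX (3 arrays), were compared with control stable cells labelled C (3 arrays). Both groups had been starved of serum overnight and then given VP-16 for 48 h. VP-16 (etoposide) is an inhibitor of topoisomerase II that leaves double-strand breaks in DNA. H2AX is the histone variant phosphorylated around such breaks. No untreated array was analysed here, so all values are levels under the drug. The means of knockdown and the number of lines or clones behind each group are not stated in the labels. The samples of a group are described as independent experiments, so where a group is 1 line its p-values cover variation between experiments alone.

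The products of these genes carry inflammatory signals out of a cell. CSF1 drives the survival of macrophages and CSF3 that of neutrophils, while prostaglandin E2 is a lipid made from arachidonic acid in 2 enzymatic steps, by PTGS2 and then by PTGES. Several of these genes are known as targets of NF-kB, which cytokines and DNA damage can activate, and lung epithelial cells can produce them under inflammatory stimulation.

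The signal of H2AX was not lower under the knockdown label. Its probe set (7952179) read 5.28, 5.17 and 5.49 on the knockdown-labelled arrays 1, 2 and 3, and 5.11, 5.27 and 5.26 on the control arrays (log2 signal). The groups overlapped, and the difference was 0.10 (limma adjusted p = 0.823; 95% interval -0.25 to 0.45). Every comparison below is therefore between libraries labelled knockdown and control, and not with a measured loss of H2AX. Knockdown-labelled array 1 stood apart, with the smallest SD over all probe sets (1.60, against 1.71 to 1.86 on the other 5). Bright genes also read lower as a group in the knockdown-labelled arrays. Of 5 equal bins of genes by mean signal, the brightest held every member but EBI3. In that bin the median difference was -0.25, and the departure from the control mean had a median of -0.45, -0.15 and -0.13 on knockdown-labelled arrays 1, 2 and 3. The part of this shift in the members' differences was not tested.

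None of the 6 members passed the threshold of the test over all genes (limma, Benjamini-Hochberg adjusted p under 0.05), at which 0.0326% of all genes were called in either direction. All 6 had a mean below that of the controls, where 51.5% of all genes did. At an unadjusted p under 0.05, 3 of them were lower (PTGES, CSF3 and CSF1) and 0 higher, where 8.38% of all genes were lower and 3.78% higher. These shares pool the 5 brightness bins, whose median differences ran from 0.15 in the dimmest to -0.25 in the brightest. They are therefore no background of like brightness for the members. The median of the 6 differences was -0.36 on the log2 scale, and that of all genes was -0.01. As the members were chosen with earlier results of these data known, their counts and median give no independent evidence of a direction. The differences of PTGES, CSF3 and CSF1 ran from -0.51 to -0.49, which is below the median of their brightness bin (-0.25). IL32, EBI3 and PTGS2 lay at or above the median of theirs. In a bulk RNA sample, fewer producing cells and less RNA per cell cannot be told apart.

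**Figure D1:**
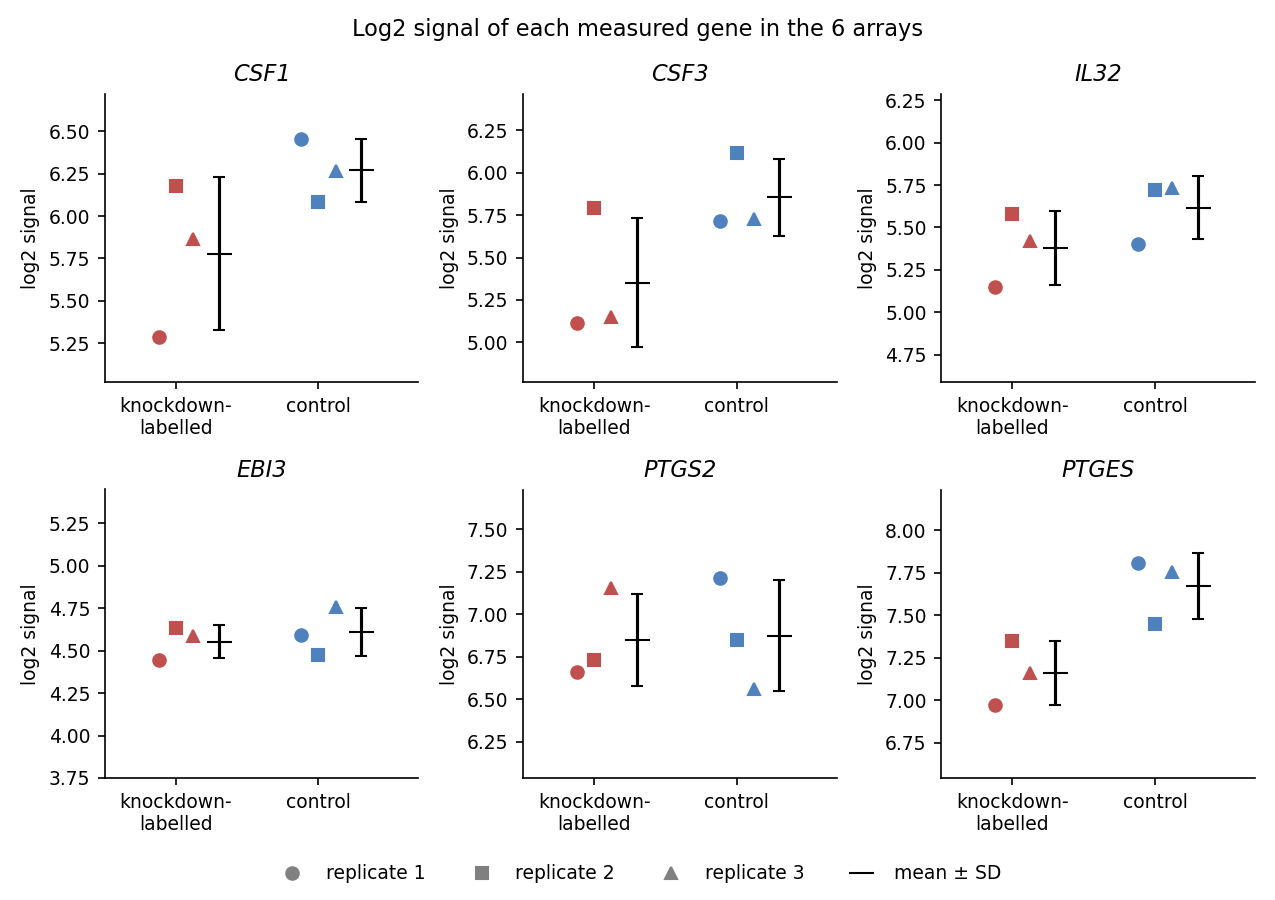
Log2 signal of the 6 measured genes, 1 panel a gene, with the 3 knockdown-labelled arrays on the left and the 3 control arrays on the right of each panel; symbols mark the replicate number and bars the mean ± SD. Every panel spans the same range of log2 units, and only for PTGES do the groups not overlap.

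PTGES, the inducible synthase that makes prostaglandin E2 (probe set 8164580, Entrez gene 9536), had the largest difference. Its log2 signal was 6.97, 7.35 and 7.16 on the knockdown-labelled arrays, against 7.81, 7.45 and 7.76 on the control arrays. All 3 knockdown-labelled arrays were below every control array, which held in this direction for 9.82% of all genes, bright and dim together. The mean was 7.16 ± 0.19 under the knockdown label and 7.67 ± 0.20 in the controls (SD, n = 3 each). The difference was -0.51 ± 0.17 (SE), a ratio of 0.701, with a 95% interval of -0.89 to -0.14. It did not pass the threshold (limma adjusted p = 0.314). The unadjusted p was 0.0107, and 3.39% of all genes had one as low. Without knockdown-labelled array 1 the difference was -0.42 and the groups still did not overlap. After quantile normalization it was -0.28.

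PTGS2, the inducible cyclooxygenase that supplies the substrate of PTGES (probe set 7922976, Entrez gene 5743), had the smallest difference of the 6. It read 6.66, 6.73 and 7.16 on the knockdown-labelled arrays, against 7.21, 6.85 and 6.56 on the control arrays. The groups overlapped over most of their range, and array 3 of the knockdown label was second only to control array 1. The difference was -0.03 ± 0.20 (SE; 95% interval -0.46 to 0.41; limma adjusted p = 0.967). In percent of the control signal, that interval runs from -27.3% to 32.8%, and a change anywhere inside it is compatible with these 3 arrays a group. It is no limit of detection, since PTGES missed the threshold at -29.9%. The sign depended on the scaling, since the difference was 0.21 after quantile normalization and 0.25 after cyclic loess.

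The pair was also compared within each array. The log2 signal of PTGES minus that of PTGS2 was 0.31, 0.62 and 0.00 on the knockdown-labelled arrays, and 0.60, 0.60 and 1.20 on the control arrays. The mean of this quantity was 0.49 lower under the knockdown label (-0.49), with overlapping groups (2-sided exact permutation test, p = 0.3). With 3 arrays a group this test cannot give a p under 0.1. It could therefore not pass the threshold, and nothing is read from it about a difference between the enzymes.

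The promoters of this pair are shown because the enzymes catalyse consecutive steps and stand at the ends of the range of differences, PTGES farthest from 0 and PTGS2 nearest. Each sequence is the 250 bases before the gene's start, from RefSeq on build GRCh38.p14, read 5′ to 3′ on the gene's strand. PTGES lies on chr9:129753043-129753292 and PTGS2 on chr1:186680424-186680673, both on the minus strand. Capitals mark matches to the motifs searched.
PTGES: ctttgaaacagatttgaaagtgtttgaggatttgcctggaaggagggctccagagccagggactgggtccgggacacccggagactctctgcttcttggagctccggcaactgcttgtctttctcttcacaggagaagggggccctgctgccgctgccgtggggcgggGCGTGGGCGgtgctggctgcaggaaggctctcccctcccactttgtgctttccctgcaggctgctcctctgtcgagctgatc
PTGS2: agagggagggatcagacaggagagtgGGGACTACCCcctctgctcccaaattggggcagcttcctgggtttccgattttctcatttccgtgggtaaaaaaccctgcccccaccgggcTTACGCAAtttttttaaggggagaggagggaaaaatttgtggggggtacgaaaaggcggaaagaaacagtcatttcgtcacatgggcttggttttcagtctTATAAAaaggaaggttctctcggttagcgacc
The motifs were GGGA, any 4 bases and CC for NF-kB, TGANTCA for AP-1, TTNCNNAA for C/EBP and GCGNGGGCG for EGR1, each on both strands, and TATAAA on the gene's strand. The PTGES window held 1 match, GCGTGGGCG for EGR1 at 82 to 74 bases before the start, a motif in 8.42% of 35116 promoter windows of this length. The PTGS2 window held 3 matches that did not overlap. They were GGGACTACCC for NF-kB (224 to 215 bases before the start), TTACGCAA for C/EBP (133 to 126) and TATAAA (32 to 27). Those motifs occur in 22.6%, 33.2% and 6.80% of the windows. Windows were also available for IL32 and EBI3, so 4 of the 6 members were searched. CSF1 and CSF3 had no window and were not searched. The AP-1 motif, in 6.57% of windows, had a match in EBI3, TGAGTCA at 118 to 112 bases before the start, and EBI3 also held 2 NF-kB matches. IL32 held 3 NF-kB matches in 1 of its 2 windows, 2 of them overlapping on opposite strands. A match is a run of letters and not a measured binding site.

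**Figure D2:**
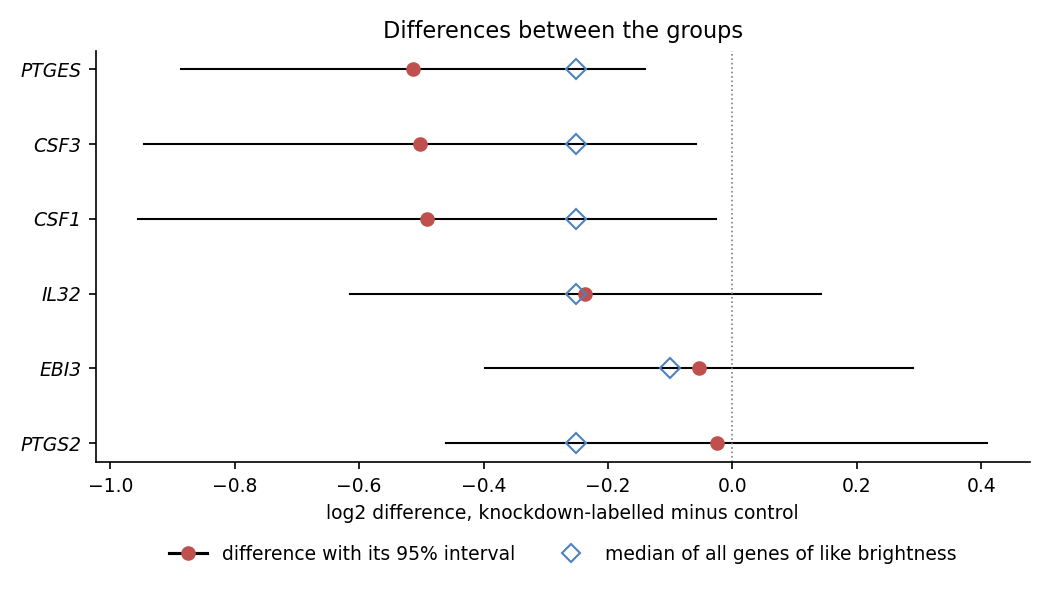
Log2 difference, knockdown-labelled minus control, of each measured gene (points) with its 95% interval (lines), and the median difference of all genes in the same brightness bin (open diamonds). The intervals of PTGES, CSF3 and CSF1 lie below 0 before adjustment for the number of genes, and each of them also covers the diamond at -0.25.

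CSF3, the growth factor of neutrophil precursors known as G-CSF (probe set 8006999, Entrez gene 1440), read 5.12, 5.79 and 5.15 on the knockdown-labelled arrays, against 5.72, 6.12 and 5.73 on the control arrays. Arrays 1 and 3 of the knockdown label were below all controls, and array 2 lay among them. The means were 5.35 ± 0.38 and 5.85 ± 0.23 (SD, n = 3 each), in the knockdown-labelled and the control arrays. The difference was -0.50 ± 0.21 (SE; 95% interval -0.95 to -0.06; limma adjusted p = 0.369), a ratio of 0.706. It was -0.38 without knockdown-labelled array 1, -0.72 without array 2 and -0.29 after cyclic loess.

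CSF1, the ligand that macrophages need to survive and divide (probe set 7903786, Entrez gene 1435), read 5.29, 6.18 and 5.87 on the knockdown-labelled arrays, against 6.45, 6.08 and 6.27 on the control arrays. Array 1 of the knockdown label was the lowest of all by a wide margin, and array 2 exceeded a control. The spread was larger under the knockdown label (5.78 ± 0.45) than in the controls (6.27 ± 0.18, SD, n = 3 each). The difference was -0.49 ± 0.22 (SE; 95% interval -0.96 to -0.03; limma adjusted p = 0.394), a ratio of 0.712. Without knockdown-labelled array 1 the value was -0.25, so much of its size rested on that array.

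IL32, an inflammatory cytokine found in humans and lacking in rodents (probe set 7992828, Entrez gene 9235), read 5.15, 5.58 and 5.42 on the knockdown-labelled arrays, against 5.40, 5.72 and 5.73 on the control arrays. Array 1 of the knockdown label was below all controls, and the other two were not. The difference was -0.24 ± 0.18 (SE; 95% interval -0.61 to 0.14; limma adjusted p = 0.595), and lay at the median of genes of like brightness, -0.25. It was -0.08 after quantile normalization and -0.03 after cyclic loess.

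EBI3, a soluble receptor-like subunit that pairs with IL27 to form interleukin-27 (probe set 8024792, Entrez gene 10148), varied least. It read 4.44, 4.63 and 4.58 on the knockdown-labelled arrays, against 4.59, 4.47 and 4.76 on the control arrays. The groups overlapped, and the difference was -0.05 ± 0.16 (SE; 95% interval -0.40 to 0.29; limma adjusted p = 0.907). The sign turned after quantile normalization (0.02) and after cyclic loess (0.03).

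The knockdown-labelled arrays differed among themselves in the same order for most members. Array 1 was the lowest of the 3 for 6 of 6 members, where this held for 38.2% of all genes. Array 2 was the highest for 5 of 6, where this held for 30.6%, the exception being PTGS2. Both shares pool bright and dim genes. The brightest bin, with every member but EBI3, was itself lowest on array 1 (median -0.45, against -0.15 and -0.13 on arrays 2 and 3). Array 1 was 0.98 below the control mean for CSF1 (-0.98), and its departure was -0.74 for CSF3, -0.70 for PTGES and -0.47 for IL32, beside the median of -0.45 for the brightest genes. Over the 6 arrays Pearson's r was 0.91 between CSF1 and PTGES, 0.81 between CSF3 and IL32, and 0.71 between CSF1 and CSF3. PTGS2 had values from -0.23 (with IL32) to 0.29 (with CSF1). These correlations are a description, over arrays that differ both by group and in the shift with brightness.

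**Figure D3:**
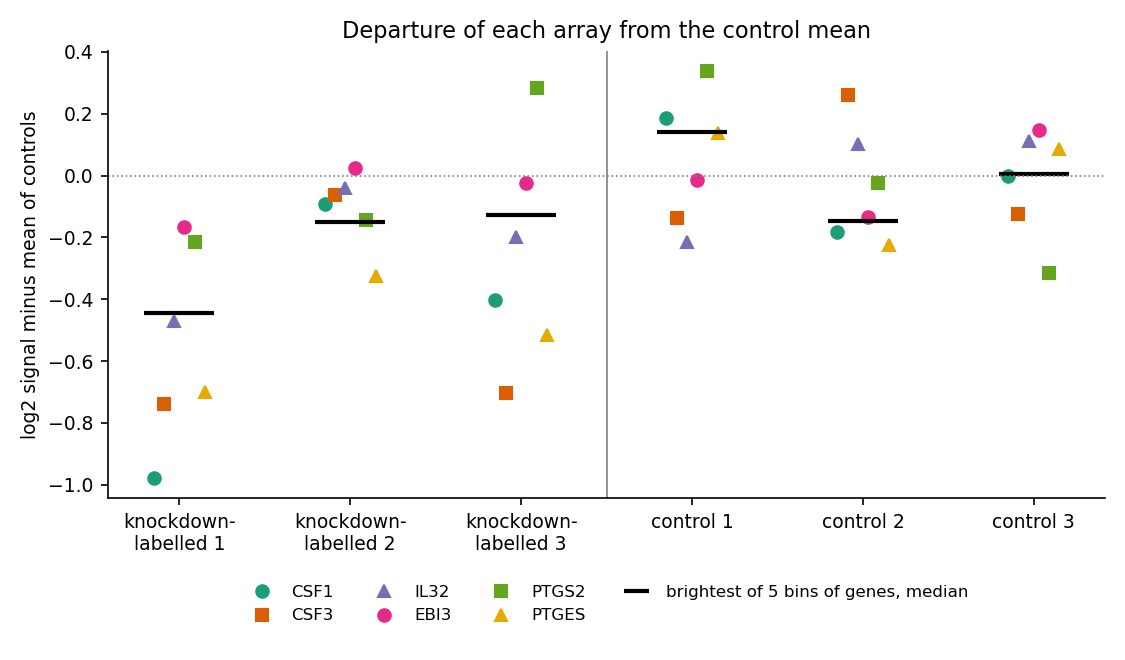
Log2 signal of each gene minus its mean over the controls, for the 3 knockdown-labelled arrays (left of the line) and the 3 control arrays (right), with the median of the brightest of 5 bins of genes as a black bar. CSF1, CSF3, IL32 and PTGES lie below the bar on knockdown-labelled arrays 1 and 3, and PTGES also on array 2. PTGS2 lies above it on arrays 1 and 3 and about level with it on array 2.

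Genes with the most similar values were sought among 4753 genes with an SD of at least 0.3 over the 6 arrays. For PTGES, 446 genes had an r over 0.9, and the closest were JADE3 (0.996), FBXO7 (0.995), NPC2 (0.993), FAM50A (0.991) and GLA (0.991). NPC2 and GLA encode lysosomal proteins, a cholesterol carrier and a galactosidase. For CSF3, 32 genes had an r over 0.9, and the closest were SOWAHD (0.990), ZRSR2 (0.986), PHLPP1 (0.984), TMEM130 (0.978) and SOCS7 (0.976). These values describe 6 arrays that share the group difference and the shift with brightness, and were not tested.

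Around PTGS2 and PTGES, 18 of 19 listed genes of prostaglandin synthesis, transport and breakdown were measured. None passed the threshold in limma, and at an unadjusted p under 0.05, 2 were lower and 0 higher, beside 8.38% and 3.78% of all genes. Their median difference was -0.05, with 10 below 0 and 8 above. PTGES3, a cytosolic prostaglandin E synthase that also serves as the HSP90 co-chaperone p23, read 5.79, 6.18 and 6.46 on the knockdown-labelled arrays, against 6.99, 6.32 and 6.65 on the control arrays. The groups overlapped, and the difference was -0.51 ± 0.21 (SE; limma adjusted p = 0.372), close to that of PTGES. It was -0.28 after quantile normalization and -0.34 without knockdown-labelled array 1. AKR1C3, a reductase that makes prostaglandin F2 alpha and has near-identical paralogs, was at 7.70 ± 0.12 under the knockdown label and 8.11 ± 0.14 in the controls (SD, n = 3 each). Its groups did not overlap, with a difference of -0.40 (limma adjusted p = 0.365), which was -0.18 after quantile normalization and -0.15 after cyclic loess. HPGDS, the synthase of prostaglandin D2 in blood cells, had a value of 0.27 (limma adjusted p = 0.519). PTGES2, the third prostaglandin E synthase, was at 0.04 (95% interval -0.30 to 0.38). PTGS1, the constitutive paralog of PTGS2, was at 0.02 (95% interval -0.41 to 0.46).

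**Figure D4:**
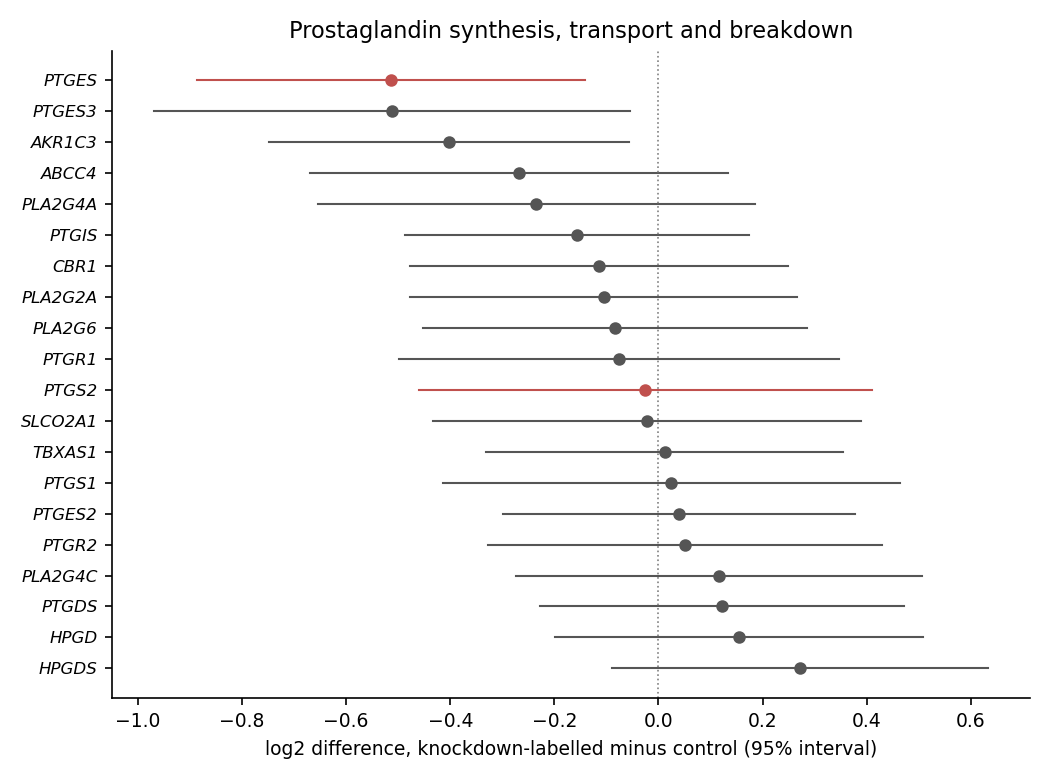
Log2 difference, knockdown-labelled minus control, with 95% intervals, of the 18 measured genes of prostaglandin synthesis, transport and breakdown (grey) and of PTGES and PTGS2 (red), ordered by difference. PTGES and PTGES3 stand lowest at -0.51 each, and most intervals include 0.

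The receptors through which these products act gave 0 calls. Of 9 prostanoid receptors none passed in limma, and 0 were lower or higher at an unadjusted p under 0.05. Their median was 0.07, with PTGDR2 at 0.30, PTGER4 at 0.13 and TBXA2R at -0.13. Of 16 colony-stimulating factor receptors and related genes none passed in limma. At an unadjusted p under 0.05, beside 8.38% lower and 3.78% higher of all genes, 0 were lower and 1 was higher. That gene was IL5, an eosinophil growth factor (0.44, limma adjusted p = 0.411), which lies in the dimmest bin, whose median was 0.15. FLT3 (0.29) and IL5RA (0.25) followed, and the list's median was 0.09. CSF1R and CSF3R, the receptors of CSF1 and CSF3, had values of 0.08 and 0.06. Both are dim, with log2 means of 3.03 and 2.28 under the knockdown label and 2.95 and 2.22 in the controls, below the median over all genes.

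Partners of EBI3 were measured as well. Of 9 subunits and receptors of the IL12 family none passed in limma, and the median was -0.04. At an unadjusted p under 0.05, 0 were lower and 0 higher, beside 8.38% and 3.78% of all genes. IL6ST, the shared signalling receptor gp130, had the largest value (-0.43, limma adjusted p = 0.453), followed by IL12B at 0.23 and IL12RB1 at 0.18. IL27 and IL12A, with which EBI3 forms secreted dimers, had values of 0.06 and -0.04.

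Messages of CSF3 and PTGS2 carry AU-rich elements, which bind proteins that control their decay. Of 11 measured regulators of such messages (12 were listed) none passed in limma. At an unadjusted p under 0.05, 2 were lower and 0 higher, beside 8.38% and 3.78% of all genes, and 10 of the 11 were below 0, beside 51.5% of all genes. The list's median was -0.31, but -0.12 after quantile normalization, -0.06 after cyclic loess and -0.16 without knockdown-labelled array 1. ZC3H12A, a ribonuclease that degrades inflammatory messages, read 5.09, 5.91 and 5.81 on the knockdown-labelled arrays, against 6.52, 5.96 and 6.45 on the control arrays. All 3 knockdown-labelled values were below the controls, array 1 by the most, and the difference was -0.70 ± 0.23 (SE; limma adjusted p = 0.305). ZC3H12A was at -0.45 without knockdown-labelled array 1. ZFP36L1, which promotes decay, was at -0.46 with no overlap (limma adjusted p = 0.398). It was at -0.22 without knockdown-labelled array 1, and at -0.23 after quantile normalization and -0.18 after cyclic loess, where its groups overlapped. ELAVL1, which stabilises such messages, was at -0.42 with overlap (limma adjusted p = 0.459), and at -0.17 without knockdown-labelled array 1. Most of these genes are bright, and the median of the brightest bin was -0.25.

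The members' median difference of -0.36 stood beside one of -0.82 for 11 other secreted inflammatory factors. The 2 medians were -0.18 and -0.70 after quantile normalization, -0.14 and -0.67 after cyclic loess, and -0.18 and -0.74 without knockdown-labelled array 1. All 11 of these factors were below 0, from -1.48 to -0.01, beside 51.5% of all genes. Of them 2 were lower past the threshold (IL1B and CXCL1), beside 0.0326% of all genes called in either direction. At an unadjusted p under 0.05, 8 were lower, beside 8.38% of all genes. The list was drawn up with earlier results of these data known, and gives no independent evidence of a direction. CXCL1, a neutrophil-attracting chemokine (probe set 8095697), read 7.36, 7.49 and 7.54 on the knockdown-labelled arrays, against 8.88, 8.58 and 8.68 on the control arrays. Its difference of -1.25 (limma adjusted p = 0.016) compares with -1.48 for IL1B and -1.13 for CCL2. The call of CXCL1 was lost with the replicate block (adjusted p = 0.0638), after quantile normalization (0.0578), after cyclic loess (0.0836) and with any array but knockdown-labelled array 3 left out (0.0538 to 0.173), and that of IL1B under the same alternatives except the replicate block (0.0444). Within arrays, CXCL1 was lower relative to every member under the knockdown label. The log2 signal of PTGS2 minus that of CXCL1 was -0.70, -0.76 and -0.39 on the knockdown-labelled arrays, and -1.67, -1.73 and -2.12 on the control arrays. The knockdown-labelled minus control difference of this quantity was 1.22 for PTGS2, 1.20 for EBI3 and 1.01 for IL32. It was 0.76 for CSF1, 0.75 for CSF3 and 0.74 for PTGES. Each of these values contains the difference of CXCL1 itself (-1.25) with its sign reversed. CXCL1 was chosen because it had passed the threshold, so these values are a description with no test. The smallest difference among the 6 genes called over the whole array was 1.13 in absolute size, and the largest among the members was that of PTGES.

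Markers of the cell line and of other cells were read beside these values. Of 8 markers of A549 and lung epithelium, 6 were below 0 and 2 above, with a median difference of -0.18 and 0 past the threshold in limma. At an unadjusted p under 0.05, 1 was lower, beside 8.38% of all genes. It was the aldehyde dehydrogenase ALDH1A1 (8.30 under the knockdown label and 8.91 in the controls, a difference of -0.61 with no overlap, limma adjusted p = 0.273). KRT8 was at 9.92 and 9.69, and EPCAM was dim (2.57 and 2.42), below the median of all genes. Of 8 blood and immune markers, 0 passed in limma, 5 were above 0 and 3 below, and the median difference was 0.06. At an unadjusted p under 0.05, 1 was lower (CD68) and 0 higher, beside 8.38% and 3.78% of all genes. Their summed linear signal ran from 362 to 455 in the knockdown-labelled arrays and from 484 to 642 in the controls, but CD68 alone gave 300.0 to 397 and 414 to 585 of it. The sum of the other 7 ran from 57.7 to 62.1 and from 54.6 to 69.5, with overlapping groups. CD68, a lysosomal protein also made outside macrophages, was at 8.47 and 8.93 (-0.46 with no overlap, limma adjusted p = 0.364). PTPRC, the pan-leukocyte surface protein, was at 2.19 and 2.07. No probe set reads 0 on this scale. All 6 fibroblast markers were above 0, with a median difference of 0.37 and 0 past the threshold in limma. At an unadjusted p under 0.05, 1 was higher, beside 3.78% of all genes. It was LUM (0.47, limma adjusted p = 0.376), in the dimmest bin, whose median was 0.15. Of 4 endothelial markers, 3 were above 0 and 1 below, with a median of 0.035. Sums over the fibroblast markers ran from 86.5 to 103 and from 71.7 to 94.4, in the knockdown-labelled and the control arrays. Those over the endothelial markers ran from 31.7 to 36.3 and from 30.8 to 35.7. The part of other cells in the members' values was not tested.

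**Figure D5:**
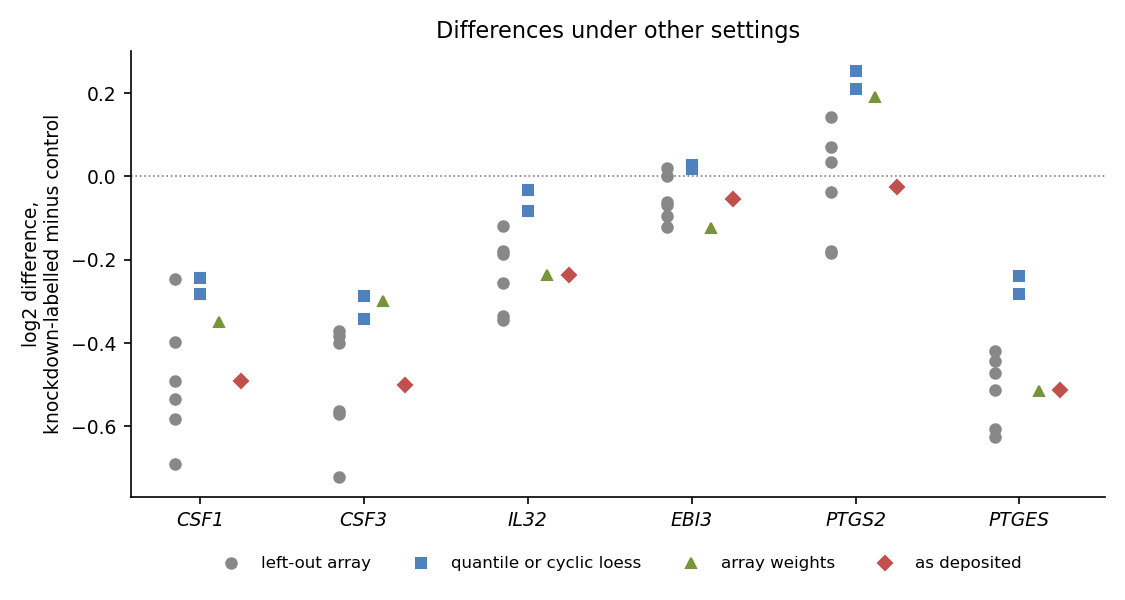
Log2 difference, knockdown-labelled minus control, of each member with 1 array left out (grey), after quantile normalization or cyclic loess (blue), with array weights (green) and as deposited (red). PTGES, CSF3 and CSF1 stay below 0 in every setting plotted, and EBI3 and PTGS2 lie on both sides of 0.

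Over the 14 other settings the differences of PTGES (-0.62 to -0.24), CSF3 (-0.72 to -0.29), CSF1 (-0.69 to -0.24) and IL32 (-0.34 to -0.03) were below 0 in each, and none passed the threshold in any. The replicate block, the filter on signal, the mean of probe sets and the intensity trend cannot change a member's difference. Subtracting array medians moves all genes alike. Agreement of sign in those settings is therefore no sign of robustness. The lowest limma adjusted p was that of PTGES with array weights (0.0834), where 191 of all genes were called.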

How the data were processed

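Gene expression was measured on Affymetrix arrays in 6 samples, grouped by their titles. The values deposited by the authors are log2 signals of 33297 probe sets, which the submitters' processing notes credit to RMA with no version. The log2 scale was read from the values. RMA compresses differences of dim probe sets. Every column was used.

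A table of the platform's annotation named the probe sets: 19460 had 1 gene, 1754 several and 12083 were unnamed here. Entrez numbers tied 19429 of the first kind to RefSeq names (0 symbols changed). The brightest probe set was kept for each of 18417 genes, with no filter on low signals. Genes were tested with limma 3.58.1 (R 4.3.3), knockdown-labelled minus control, 2-sided, with no covariate and Benjamini-Hochberg adjustment over all genes at 0.05. Brightness bins are 5 equal groups of genes by mean signal. Members and lists were chosen with earlier results of these data known. Genes named are the members, H2AX, the other prostaglandin E synthases and PTGS1, the 3 genes of each list with the smallest unadjusted p, and the 5 genes most like each of the 2 members with the smallest p. IL27, IL12A, CSF1R and CSF3R were named later, for their roles, and the cell markers after their values were seen. The procedure was run on simulated arrays with independent noise for each gene and no shift with brightness. That run therefore cannot show how the procedure behaves under the shift seen here. Figures were drawn with matplotlib 3.10.9.

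Alternatives tried were quantile normalization, cyclic loess (5 iterations), array medians subtracted, array weights, each array left out, the replicate number as a block, genes under the median signal left out, the mean of a gene's probe sets, and robust variance with an intensity trend. The titles number the replicates of both groups. Same-numbered arrays did not deviate together over all genes, which does not settle whether the numbers pair them.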

Additional observations from a re-analysis of the deposited data

How the results depend on the processing

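The number of arrays limits the precision: standard errors of the members ran from 0.16 to 0.22, and no signal over background could be read. The count of members past the threshold was 0 in each of the 14 alternatives. The count over all genes, 6 as deposited, was 3 with the replicate block, 16 with genes under the median signal left out, 0 after quantile normalization (1495 at an unadjusted p under 0.05) and 0 after cyclic loess (1511), 3 with the mean of all probe sets, 191 with array weights, and 0 to 9 with 1 array left out; it was 0 without control array 1 or 3 or knockdown-labelled array 1 or 2. The cause was not tested. Same-numbered arrays had correlations of deviations of -0.31, -0.03 and 0.07, and those of differently numbered arrays ran from -0.385 to 0.37. All of them include the shift with brightness, so they cannot settle whether the numbers pair the arrays. With the replicate block the differences are those without it, and the limma adjusted p was 0.456 for PTGES, 0.442 for CSF3, 0.51 for CSF1, 0.655 for IL32, 0.931 for EBI3 and 0.973 for PTGS2.

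The sign turned for members near 0. EBI3 was at 0.019 after quantile normalization, 0.028 after cyclic loess and -0.121 to 0.0195 with 1 array left out. PTGS2 was at 0.21 after quantile normalization, 0.25 after cyclic loess, 0.19 with array weights and -0.18 to 0.14 with 1 array left out. Among other genes, PTGS1 turned to -0.0544, -0.0237 and -0.0436 (quantile, array medians, cyclic loess), PTGES2 to -0.0085 with array medians subtracted and -0.004 with array weights, CSF1R to -0.0134 and -0.0085 and CSF3R to -0.11 and -0.11 (quantile, cyclic loess), EPCAM to -0.0127 and PHLPP1 to 0.16 with the mean of all probe sets. With 1 array left out the values ran from -0.0896 to 0.358 for CSF1R, -0.0086 to 0.141 for CSF3R, -0.063 to 0.0145 for IL12A, -0.0432 to 0.0833 for PTGES2, -0.141 to 0.262 for PTGS1 and -0.35 to 0.0685 for TBXA2R. PTGES minus PTGS2 kept its sign in the 13 alternatives run. The replicate block, the filter on signal, the mean of probe sets, the intensity trend and subtracted array medians could not change it. Alternatives for genes that are no members, list medians and this pair were added after seeing the data.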
